A study of Mus musculus with 24 samples.

Results

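Collagen genes are described here across the dentate gyrus of wild-type mice and of transgenic APP/PS1 mice, which develop amyloid plaques. They were all genes of the count table whose symbol has the form of a collagen alpha chain (Col, a number, a, a number) and whose counts summed to at least 100 over the 24 libraries. This rule gave 43 of 26667 genes, and every one of the 43 matching symbols reached the sum, the lowest being Col10a1 with 202 counts and Col17a1 with 305, so no gene lay just outside the limit. The dentate gyrus is the hippocampal region where the granule neurons lie. The groups were WT mice of the C57BL6/J strain (n = 5), APP/PS1 mice without treatment (n = 5, called controls below), APP/PS1 mice given BCI-838 (n = 4), APP/PS1 mice with a running wheel (n = 5) and APP/PS1 mice with both (n = 5, called the combined group). BCI-838 is an oral pro-drug whose product blocks the glutamate receptors mGluR2/3. Its daily dose was 5 mg/kg over 1 month, and the wheel could be used freely over 1 month. Mice without the drug received vehicle, as far as the series design says. The sources used here give neither age, sex nor the promoter of the transgenes, nor do they say if reads were counted by strand.

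Collagens are extracellular proteins in which alpha chains wind around each other into a rope-like helix. Fibrillar collagens form the cables of connective tissue, fibril-associated collagens coat these cables, collagen IV forms the sheet-like network of basement membranes, and collagen VI forms beaded filaments. Transmembrane collagens sit in the cell surface, and multiplexins carry fragments such as endostatin in the basement membrane zone. In brain tissue most collagen is known from the meninges, the sheaths of blood vessels and the choroid plexus, and some collagens are made by neurons.

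Total counts ranged from 48656360 to 64632882 per library, and collagen genes took between 0.0415% and 0.0878% of them. App, the mouse counterpart of the APP transgene, stood at 1452 to 2073 CPM (counts scaled to the library size with TMM factors) in WT and at 2467 to 4054 CPM in the APP/PS1 libraries, with no overlap. The 10 granule neuron markers summed to between 360 and 1847 CPM, with none at 0 in any library. There were 4 libraries with over 100 CPM of Ttr, which encodes transthyretin of the choroid plexus: replicates 2, 4 and 5 of the controls at 425, 1615 and 1269 CPM and replicate 5 of the combined group at 297 CPM. Ttr stood at 0.573 to 15.6 CPM in the other 20 libraries. For many results that rest on these 4 libraries, values with and without them are given. The tissue is a bulk sample, so fewer cells of a type and less RNA per cell cannot be told apart.

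In WT dentate gyrus, the collagen pool was dominated by a few chains. Levels are compared between genes as CPM per kb of merged exon, so that long and short genes can be set side by side. Col4a2 and Col4a1, the common chains of basement membrane collagen IV, stood first and next at 12.8 ± 2.93 and 8.49 ± 2.55 CPM per kb (SD, n = 5). Col11a2, a minor fibrillar chain best known from cartilage, followed at 8.37 ± 1.72 CPM per kb. These 3 genes held 38.7% of the summed collagen level per length.

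Col25a1, the transmembrane collagen that was first isolated from amyloid plaques and is made by neurons, came next at 6.14 ± 0.724 CPM per kb. Col19a1, a fibril-associated collagen tied to inhibitory synapses in the hippocampus, stood at 5.73 ± 3.01 CPM per kb, and Col9a3, a chain of collagen IX, at 4.25 ± 0.430 CPM per kb. With these the share of the 6 highest genes came to 59.8%. The ranges of WT libraries overlapped between each gene of this order and the next, so the order of neighbours is not resolved at this spread.

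At the other end, 29 genes lay under 1 CPM per kb and held 14.8% of the level. The lowest were Col17a1, a collagen of skin attachment structures, at 0.0381 ± 0.0129 CPM per kb, Col10a1, a collagen of growth plate cartilage, at 0.0358 ± 0.0125 CPM per kb, and Col6a5 at 0.0314 ± 0.0161 CPM per kb. By class, the 6 collagen IV genes held 29.4% of the WT level per length, the 9 fibril-associated genes 27.3% and the 11 fibrillar genes 23.8%. The 4 transmembrane genes held 9.51%, most of it Col25a1, the 6 collagen VI genes 5.12%, and the multiplexin, short-chain and remaining genes less. The plot of WT levels by gene shows this steep order.

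**Figure D1:**
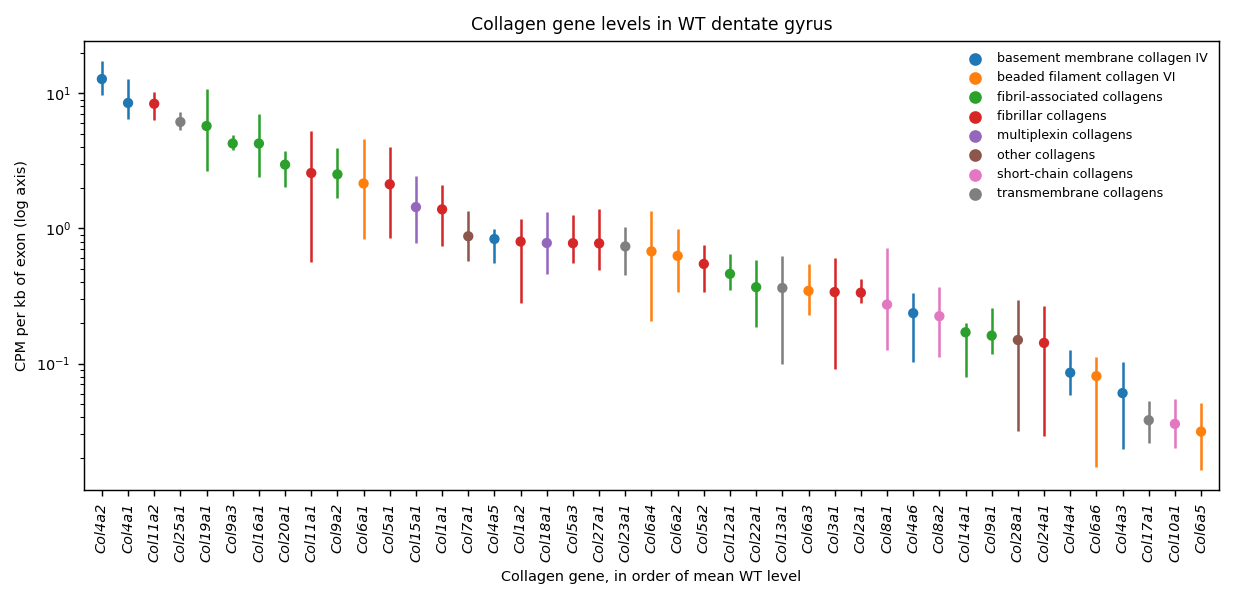
Mean level of each of the 43 collagen genes in WT dentate gyrus (points, CPM per kb of exon, log axis) with the range over 5 libraries (lines), coloured by class. Levels run from 12.8 CPM per kb for Col4a2 to 0.0314 CPM per kb for Col6a5.

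Summed over all 43 genes, collagen stood at 571 ± 105 CPM in WT (SD, n = 5), 628 ± 131 in controls (n = 5), 715 ± 51.2 with BCI-838 (n = 4), 580 ± 114 with the wheel (n = 5) and 617 ± 83.7 in the combined group (n = 5). The ranges of all 5 groups overlapped, and the sum was not tested. Single genes varied far more than the sum. In 14 of 43 genes the highest library was below 2 times the median library, and in 6 it was above 5 times. Col8a2 had the widest such ratio, at 16.9, followed by Col5a1 at 8.06, Col5a3 at 7.16 and Col6a1 at 6.95. Col11a2 had the narrowest, at 1.46. Replicate 4 of the controls alone held the highest value of 14 genes, among them Col8a1, Col8a2, Col9a3 and Col4a3.

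Chains that assemble with each other were compared over the libraries on a log2 CPM scale after each group's mean was subtracted. The permutations take no account of the means subtracted, so their p values are somewhat too small. Col4a1 and Col4a2 moved almost in step, with Pearson r = 0.94 (permutation p = 1e-05, adjusted over 10 pairs 2.5e-05) and Spearman rho = 0.90 (permutation p = 1e-05, adjusted 2.5e-05) over 24 libraries, where 1e-05 is the smallest p these permutations can give. Without the 2 libraries farthest from the median r was 0.90. Their ratio per length, Col4a2 over Col4a1, stayed between 1.33 and 1.76, with a mean of 1.52 ± 0.116 (SD, n = 24). The highest levels of both were in replicate 5 of the combined group (124 CPM of Col4a2 and 97.4 CPM of Col4a1) and in WT replicate 3 (115 and 95.1 CPM). These libraries also had the highest summed CA field markers, at 1398 and 1190 CPM against 450 to 913 CPM elsewhere, and the part of neighbouring tissue in the collagen IV level was not tested.

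The Col4a1 and Col4a2 genes lie head to head on chromosome 8, Col4a1 from 11198423 to 11312826 on the minus strand and Col4a2 from 11312805 to 11449287 on the plus strand (GRCm38, the assembly that mm10 names). Their first exons share 22 bases, which are printed because both transcripts start there. The sequence is RefSeq's for GRCm38.p6, on the plus strand, and capitals mark a GC box, the letters GGGCGG on either strand.
Col4a1 and Col4a2 shared first exon bases, chr8:11312805-11312826: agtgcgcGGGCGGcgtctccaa
Reads that fall on these bases cannot be assigned to one gene without strand, which touches few of the 6619 exon bases of Col4a2.

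Col4a3 and Col4a4, chains of the specialised collagen IV of kidney and cochlea, are another head-to-head pair, on chromosome 1, with 71 bases between the start of Col4a4 (82586849, minus strand) and that of Col4a3 (82586921, plus strand). The interval is shown for comparison with the first pair, because these neighbours did not move in step outside the libraries with high Ttr. Col4a3 had only 12 to 139 counts per library and Col4a4 26 to 124, against 2251 to 5147 for Col4a1. Such low counts can weaken a correlation, and their part in this difference between the pairs was not tested. No GC box, CCAAT or TATAAA letters were found in it.
Col4a4 to Col4a3 interval, chr1:82586850-82586920, plus strand: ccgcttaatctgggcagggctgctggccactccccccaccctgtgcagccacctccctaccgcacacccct
In the 20 libraries without high Ttr, r was 0.15 (permutation p = 0.532, adjusted 0.532) and rho was 0.13 (permutation p = 0.586, adjusted 0.586), and r was -0.05 without the 2 farthest libraries. With all 24 libraries r was 0.44 (adjusted permutation p = 0.0371), so that relation rests on the libraries with high Ttr. There Col4a4 was above all 20 others in 4 of 4 libraries and Col4a3 in 3 of 4. As these permutation p values are somewhat too small, a value this near 0.05 does not settle that relation. The third head-to-head pair, Col4a5 and Col4a6 on the X chromosome with 1342 bases between the start sites that RefSeq gives (141475419 and 141474076), had r = 0.59 (adjusted permutation p = 0.0103) and rho = 0.60 (adjusted permutation p = 0.00935) in the 20 libraries.

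Among other partners, Col1a1 and Col1a2, the chains of collagen I, had r = 0.87 and rho = 0.88 over 24 libraries, and Col1a1 and Col3a1, whose products join in the same fibrils, had r = 0.90 and rho = 0.89. Col6a1 and Col6a2 had r = 0.86 and rho = 0.89. For these 3 pairs every permutation p was 1e-05 and every adjusted p was 2.5e-05, and without the 2 farthest libraries r was 0.83, 0.86 and 0.86. Over the 20 libraries Col5a1 and Col5a2 had r = 0.58 (adjusted permutation p = 0.011) and rho = 0.61 (adjusted permutation p = 0.00935). Col8a1 and Col8a2 had r = 0.65 (adjusted permutation p = 0.00322) and rho = 0.57 (adjusted permutation p = 0.0151) there. The collagen IX chains were looser. In the 20 libraries r was 0.56 for Col9a1 with Col9a2 (adjusted permutation p = 0.0134) and 0.52 for Col9a2 with Col9a3 (adjusted permutation p = 0.0206). Without the 2 farthest libraries r was 0.32 and 0.44. With all 24 libraries Col9a2 and Col9a3 had r = 0.23 (adjusted permutation p = 0.294) and rho = 0.17 (adjusted permutation p = 0.437).

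The first comparison set APP/PS1 controls against WT. None of the 43 collagen genes passed a Benjamini-Hochberg adjusted p under 0.05 by the quasi-likelihood test of edgeR, where 0.0109% of all 18286 tested genes did. DESeq2 and voom called 0 as well, and of all genes they called 12 of 22988 and 2 of 18286. At an unadjusted p under 0.05 there were 6 collagen genes, all higher in controls (14.0%), against 2.76% of all genes in either direction and 2% higher. The 43 genes, all of which passed the filter on low counts, were higher in 32 cases and lower in 11, with a median log2 fold change of 0.33 against -0.01 over all genes. Without replicate 4 of the controls the collagen median was 0.06, and without all 4 libraries with high Ttr the split was 27 higher and 16 lower. The 6 genes were Col8a2, Col9a3, Col4a3, Col5a2, Col6a1 and Col8a1.

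Col8a2 and Col8a1 encode the chains of collagen VIII, a short-chain collagen of corneal and vascular sheets. Col8a2, which lies on chromosome 4 from 126286793 to 126314330, measured 1.66, 0.502, 1.19, 0.891 and 0.790 CPM in the WT libraries and 1.17, 7.40, 1.05, 13.5 and 8.73 CPM in the controls. The 3 controls with high Ttr were far above all WT libraries, and the other 2 lay inside the WT range. The log2 fold change was 2.66 (SE 0.69, adjusted p = 1.00 by edgeR), and it was 0.15 without the 4 libraries with high Ttr. Across all groups, the 4 libraries with high Ttr had 4.48 to 13.5 CPM of Col8a2 and the other 20 had 0.287 to 1.66 CPM.

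Of the other 5 genes, Col8a1, Col9a3 and Col4a3 were highest in controls with high Ttr, and Col5a2 and Col6a1 were highest in control replicate 3, which has low Ttr (21.6 and 46.9 CPM). Col8a1 measured 0.991 to 5.64 CPM in WT and 2.16, 3.70, 1.86, 8.97 and 8.72 CPM in the controls. Col9a3 measured 14.5 to 19.1 CPM in WT and 18.2, 22.2, 17.3, 53.6 and 32.6 CPM in the controls, and Col4a3 0.232 to 1.03 CPM against 1.04, 0.703, 0.454, 2.52 and 2.21 CPM. In each of them, replicates 4 and 5 of the controls stood above every WT library.

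Col9a3 had a log2 fold change of 0.81 (SE 0.23) with all libraries and 0.12 without the 4 with high Ttr, and Col4a3 had one of 1.20 (SE 0.44) and 0.31. All 16 choroid plexus markers were higher in controls than in WT (median log2 fold change 2.86, none called), with sums of 241 to 2554 CPM in controls and 203 to 301 CPM in WT, and all 7 tested ependymal markers were higher as well (median 1.99). Some of the choroid markers were at 0 in 8 libraries, at most 2 at a time, and their part in the collagen values was not tested beyond the fits without these libraries. Exons of Col9a3 overlap those of Tcfl5 and exons of Col4a3 those of C430014B12Rik, each on the opposite strand, and reads there cannot be told apart without strand.

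**Figure D2:**
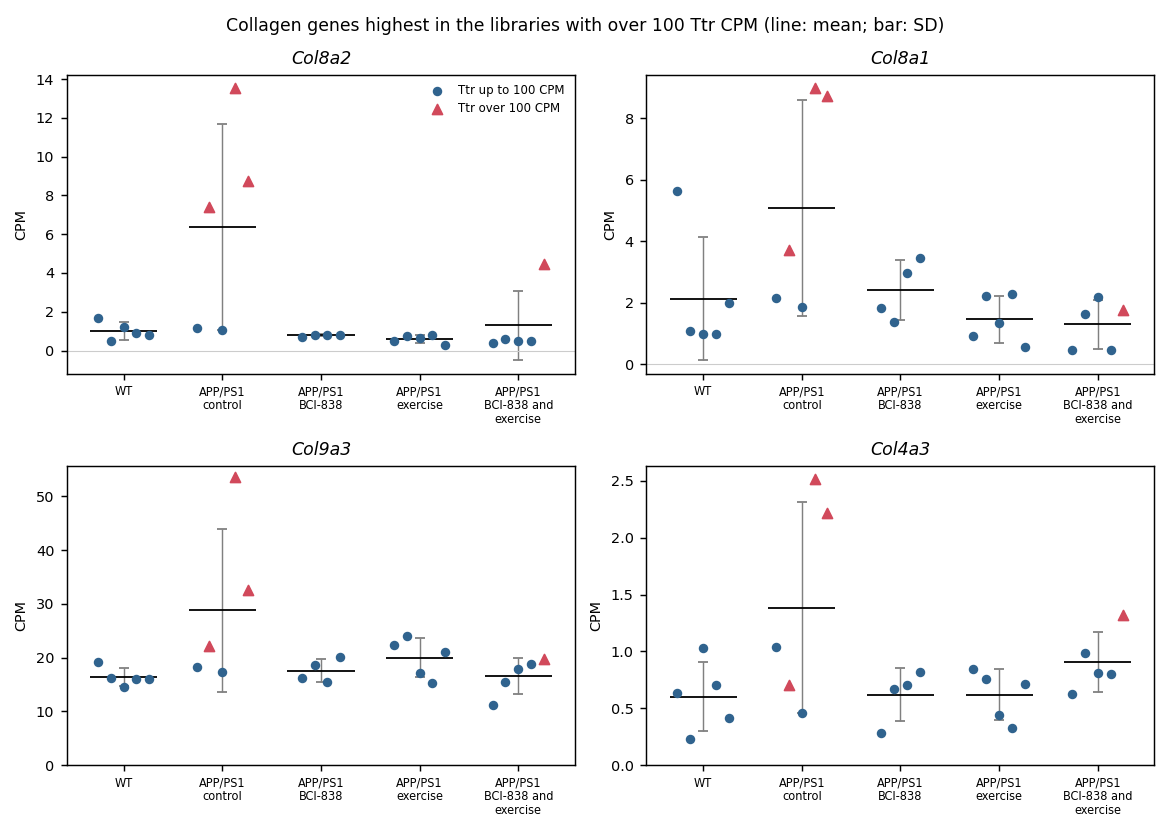
CPM of Col8a2, Col8a1, Col9a3 and Col4a3 in each library by group, with the group mean (black line) and SD (grey bar). Triangles are the 4 libraries with over 100 CPM of Ttr, which hold all Col8a2 values above 1.66 CPM.

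The stretches upstream of the collagen VIII genes are printed because Col8a2 had the widest ratio of highest to median library of the 43 genes, and Col8a1 encodes its partner chain. They are RefSeq windows for GRCm38.p6, each read in the gene's own direction up to its start site, and capitals again mark GC boxes (GGGCGG on either strand, overlapping matches included).
Col8a2, chr4:126286544-126286792, plus strand: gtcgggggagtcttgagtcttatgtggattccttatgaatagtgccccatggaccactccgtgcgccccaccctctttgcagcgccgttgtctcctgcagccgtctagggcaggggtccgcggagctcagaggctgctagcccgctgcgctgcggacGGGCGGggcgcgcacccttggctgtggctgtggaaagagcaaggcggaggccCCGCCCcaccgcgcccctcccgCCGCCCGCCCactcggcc
Col8a1, chr16:57754738-57754987, minus strand: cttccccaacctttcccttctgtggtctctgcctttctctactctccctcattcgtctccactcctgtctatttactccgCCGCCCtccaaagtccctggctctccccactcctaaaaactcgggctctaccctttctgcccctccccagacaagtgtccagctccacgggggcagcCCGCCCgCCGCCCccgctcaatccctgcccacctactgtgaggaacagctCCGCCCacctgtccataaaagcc
Each of the 2 stretches held 4 GC boxes and neither held CCAAT or TATAAA. Of the 43 genes, 35 had a RefSeq window of 300 bases around the start, in 38 windows. A GC box was found in 23 of the 38 windows (60.5%) and in 35.7% of all 32851 windows of that length. CCAAT was found in 34.2% and 37.4%, and TATAAA in 13.2% and 13.6%. These are matches of letters and not known binding sites.

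BCI-838 against the untreated controls came next, 4 libraries against 5. No collagen gene passed by edgeR, and 0% of all genes did, while DESeq2 called Col8a2 and voom called Col5a2, Col6a2, Col6a1 and Col8a2. Of all genes DESeq2 called 169 of 22988 and voom 483 of 18286. There were 8 collagen genes (18.6%) at an unadjusted p under 0.05, 4 in each direction, against 10.2% of all genes, 4.23% higher and 5.96% lower. Of the 43 genes 26 were higher and 17 lower, and their median log2 fold change was 0.14, where that over all genes was near 0. The collagen median was 0.33 without replicate 4 of the controls and 0.06 without replicate 4 of the drug group. With the midbrain factors described below as a covariate it was -0.02, with 20 genes higher and 23 lower. This comparison and the next ones share the control libraries.

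Of the 43 genes, Col6a1 was higher with the drug and Col8a2 lower without any overlap between the groups. With 1 gene in each direction, this was about the share of all genes (2.51% higher and 2.2% lower). Col6a1, a chain of collagen VI, on chromosome 10 from 76708792 to 76726168, measured 22.8, 8.75, 46.9, 35.1 and 10.6 CPM in controls and 88.9, 92.0, 49.6 and 118 CPM with BCI-838. All 4 libraries with the drug were above all 5 controls, the lowest just above the highest control, a separation that 2.51% of all genes showed in this direction. The log2 fold change was 1.81 (SE 0.65, adjusted p = 0.334 by edgeR), and it was 1.32 without the libraries with high Ttr and 2.36 by voom (adjusted p = 0.0310).

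Col6a1 was not high in the drug group alone. The libraries of the combined group measured 94.1, 11.5, 118, 33.9 and 14.0 CPM, and those of the wheel group 11.3, 40.0, 10.8, 10.8 and 10.1 CPM. WT libraries measured 3.69, 7.29, 7.49, 8.69 and 19.98 CPM, in rising order. In the combined group 2 libraries lay within the range of the drug group and the other 3 below it, and replicate 2 of the wheel group stood apart from the other 4. Against the wheel group, the combined group differed by 1.71 on the log2 scale (SE 0.63, adjusted p = 0.181 by edgeR), with overlapping groups.

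Col6a2, the partner chain, measured 3.22 to 17.1 CPM in controls and 10.2 to 17.7 CPM with the drug, and followed Col6a1 library by library as given above. Its range was narrower: the ratio of Col6a1 to Col6a2 per length ran from 2.40 in WT replicate 1 to 19.7 in replicate 3 of the combined group. Col6a3, which supplies the remaining chain of the common collagen VI, measured 2.68 to 12.7 CPM in controls and 5.12 to 8.17 CPM with the drug, and 2.01 to 4.18 CPM in the combined group, where Col6a1 reached 118 CPM. The start sites that RefSeq gives for Col6a1 (76726044, inside the GENCODE gene) and Col6a2 (76623630) lie 102414 bases apart on the same strand. Their upstream stretches are shown because these chains moved together, and that of Col6a1 ends where the first exon of GENCODE begins.
Col6a1, chr10:76726169-76726294, minus strand: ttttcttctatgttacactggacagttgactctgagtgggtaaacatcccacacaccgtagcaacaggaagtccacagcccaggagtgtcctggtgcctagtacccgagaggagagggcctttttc
Col6a2, chr10:76623631-76623880, minus strand: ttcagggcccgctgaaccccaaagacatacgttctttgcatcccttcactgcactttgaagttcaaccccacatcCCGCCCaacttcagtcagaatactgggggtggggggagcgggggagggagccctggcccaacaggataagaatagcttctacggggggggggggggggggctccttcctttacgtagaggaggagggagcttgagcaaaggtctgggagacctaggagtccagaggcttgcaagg
Only the Col6a2 stretch held a GC box, and neither held CCAAT or TATAAA.

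**Figure D3:**
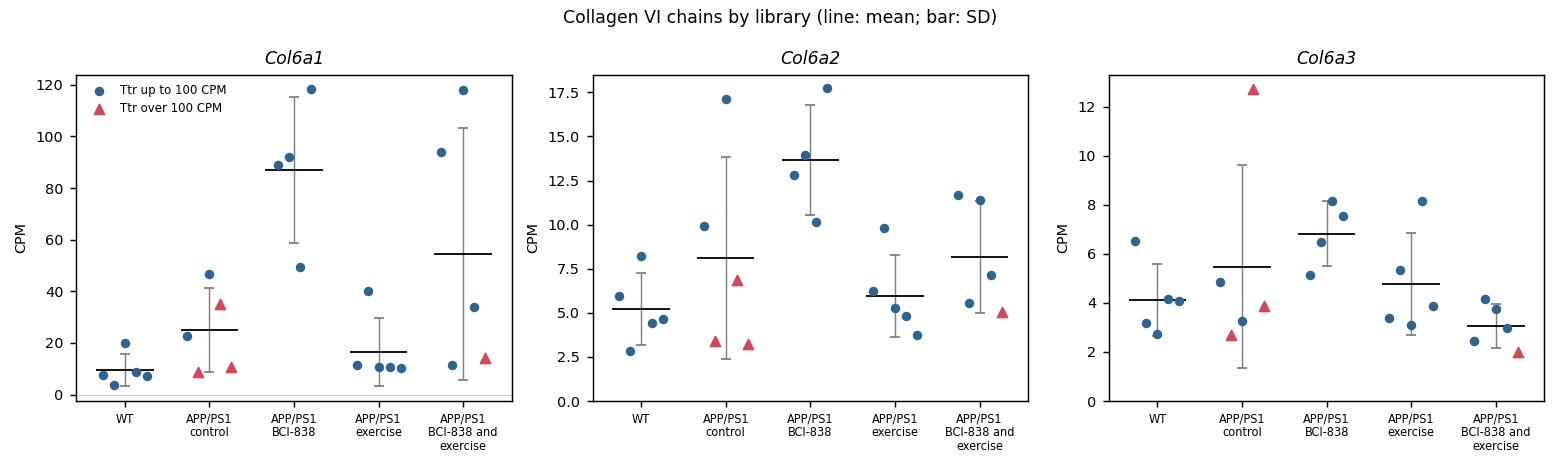
CPM of the collagen VI chains Col6a1, Col6a2 and Col6a3 in each library by group, with the group mean (black line) and SD (grey bar). The 4 BCI-838 libraries lie at 49.6 to 118 CPM of Col6a1, and the combined group has 2 libraries at 94.1 and 118 CPM and 3 at 11.5 to 33.9 CPM.

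The genes whose pattern was most like that of Col6a1 were ranked by Pearson r over the 24 libraries, group means subtracted, among 18285 genes. Col6a2 came first (r = 0.86), then Igfbp6 (r = 0.78, 4.13 to 35.5 CPM), which encodes a binding protein of insulin-like growth factors, Plp2 (r = 0.77) and Sh2d5 (r = 0.75). The most opposite gene was Lrrn1 (r = -0.82). These genes were chosen by this measure, so no test is given.

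Collagens I and III had their highest group means with the drug. Col1a1, on chromosome 11 from 94936224 to 94953042, measured 14.2, 5.50, 9.94, 11.1 and 7.19 CPM in controls and 7.76, 26.0, 29.6 and 22.2 CPM with BCI-838. Replicates 2, 3 and 4 of the drug group were above every control and replicate 1 was not. The same replicates had 9.37 to 18.7 CPM of Col3a1, against 2.28 to 5.57 CPM in controls and 2.96 CPM in replicate 1. Log2 fold changes were 1.16 for Col1a1 (SE 0.42, adjusted p = 0.347 by edgeR) and 1.44 for Col3a1 (SE 0.56, adjusted p = 0.368 by edgeR).

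The 18 fibroblast markers that are not collagens did not follow: 5 were higher with the drug and 13 lower, with a median of -0.30 on the log2 scale and sums of 153 to 197 CPM against 186 to 325 CPM in controls. Markers of mural cells, which wrap blood vessels, were higher in 9 of 12 cases (median 0.23), and 11 of 13 transcription factors of the dorsal midbrain were higher (median 1.43, sums of 56.9 to 116 CPM against 9.33 to 87.7 CPM, with up to 5 of them at 0 in a library). No marker of these lists was called. Beyond the fits with the fibroblast and midbrain lists as covariates, their part in the collagen values was not tested.

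Col8a2 measured 0.706, 0.824, 0.808 and 0.819 CPM with the drug, all below the 5 controls, a separation that 2.2% of all genes showed in this direction. The log2 fold change was -3.01 (SE 0.77, adjusted p = 0.173 by edgeR, 0.0105 by DESeq2). Without the 4 libraries with high Ttr it was -0.49 (adjusted p = 0.889), with 2 controls left. Col9a3 went from -0.71 (SE 0.25) to -0.02 in the same fit. Choroid plexus markers were lower with the drug than in controls in 15 of 16 cases (median -3.02, sums of 208 to 261 CPM against 241 to 2554 CPM) and ependymal markers in 7 of 7 (median -3.14), none called. With the choroid plexus markers as a covariate the log2 fold changes of Col8a2 and Col9a3 were -0.40 and -0.04.

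The running wheel was compared with the untreated controls over 5 libraries each. No collagen gene passed by edgeR, where 0.00547% of all genes did, DESeq2 called Col8a2 and voom called 0. Of all genes DESeq2 called 60 of 22988 and voom 0 of 18286. There were 6 collagen genes at an unadjusted p under 0.05, all lower with the wheel (14.0%), against 5.44% of all genes in either direction and 3.07% lower. Of the 43 genes 11 were higher and 32 lower, with a median of -0.16 against 0.01 over all genes, and of -0.02 without replicate 4 of the controls. With the choroid plexus markers as a covariate 23 were higher and 20 lower, with a median of 0.02.

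Col8a2 measured 0.505, 0.761, 0.660, 0.775 and 0.287 CPM with the wheel, below all 5 controls, as did 0.328% of all genes. Its log2 fold change was -3.41 (SE 0.72, adjusted p = 0.252 by edgeR). It passed by edgeR when replicate 1 of the controls was left out (adjusted p = 0.0461, log2 fold change -3.68), where 27 of 18246 genes passed. Without the 4 libraries with high Ttr its log2 fold change was -0.89 (adjusted p = 0.883).

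Col8a1 measured 0.938, 2.21, 1.36, 2.29 and 0.574 CPM with the wheel, with a log2 fold change of -1.78 (SE 0.59) against controls, and of -0.45 without the 4 libraries. Col4a3 had a log2 fold change of -1.16 (SE 0.44), and of -0.27 without them. Col10a1 had one of -1.22 (SE 0.56), but its levels of 0 to 0.417 CPM over all libraries leave few counts behind it. All 16 choroid plexus markers were lower with the wheel than in controls (median -3.42), with sums of 192 to 277 CPM, and all 15 endothelial markers were higher (median 0.26), none of them called. The fibrillar collagens showed no common direction here, with 4 of 11 higher and a median of -0.07.

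In the combined group, compared with the untreated controls, no collagen gene passed by edgeR, and 0% of all genes did. DESeq2 and voom also called 0 collagen genes, and of all genes they called 79 of 22988 and 0 of 18286. At an unadjusted p under 0.05 there were 11 genes, all lower in the combined group (25.6%), against 10.6% of all genes in either direction and 5.73% lower. Of the 43 genes 12 were higher and 31 lower, with a median of -0.28 against -0.01 over all genes. That median was -0.15 without replicate 4 of the controls, -0.56 without replicate 3 of the combined group and -0.43 without the 4 libraries with high Ttr. The 11 genes were Col9a3, Col8a2, Col8a1, Col23a1, Col5a3, Col17a1, Col9a2, Col18a1, Col6a3, Col1a2 and Col15a1. Among them Col9a3, Col8a2, Col8a1, Col5a3, Col17a1, Col18a1 and Col6a3 were highest of all libraries in control replicate 4, which has high Ttr.

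Col8a1 measured 0.481, 1.64, 2.18, 0.457 and 1.78 CPM in the combined group, a difference of -1.96 on the log2 scale (SE 0.59, adjusted p = 0.301 by edgeR) against controls and of -0.76 without the 4 libraries with high Ttr. Col18a1, the multiplexin that carries endostatin, stood at 4.57 ± 1.28 CPM against 7.95 ± 3.10 CPM in controls (SD, n = 5 in both), giving a log2 fold change of -0.80 (SE 0.31). Its relative Col15a1 stood at 4.72 ± 2.23 CPM against 8.14 ± 3.52 CPM, a log2 fold change of -0.79 (SE 0.37). Neither of the multiplexin groups was separate from the controls.

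Fibroblast markers were lower in the combined group than in controls in 18 of 18 cases, with a median log2 fold change of -1.35, none called, and sums of 71.9 to 146 CPM against 186 to 325 CPM. With the mean log2 level of these markers as a covariate the collagen median went from -0.28 to 0.11, and 26 of 43 genes were then higher. As the marker sums did not overlap between the groups, this fit cannot separate the markers from the treatment. Among these markers Dcn also marks the CA field, and Dcn, Lum, Ogn and Fmod stand in the list of small leucine-rich proteoglycans too.

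The combined group was then set against each single treatment, and the drug-by-wheel interaction was tested. Against BCI-838, 10 collagen genes were higher and 33 lower, with a median of -0.41 against -0.01 over all genes. None passed by edgeR, where 0% of all genes did, while DESeq2 called 3 (Col5a2, Col23a1 and Col1a2) and voom called these and Col9a1, Col6a3 and Col9a2. Of all genes DESeq2 called 256 of 22988 and voom 936 of 18286. At an unadjusted p under 0.05 there were 13 genes (30.2%), 12 of them lower, against 14.3% of all genes, 7.48% higher and 6.84% lower. With the fibroblast markers as a covariate 3 collagen genes were under that limit, and with the midbrain factors 1.

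Col23a1, a transmembrane collagen on chromosome 11 from 51289920 to 51583918, measured 3.51, 5.27, 6.60 and 7.35 CPM with BCI-838 and 1.67, 2.44, 3.49, 1.85 and 2.78 CPM in the combined group. The highest combined library was just below the lowest drug library. Col5a2, Col6a3, Col9a2 and Col7a1 were also separate and lower, so that 5 of 43 genes were, where 3.94% of all genes were. Col23a1 differed by -1.22 on the log2 scale (SE 0.30, adjusted p = 0.185 by edgeR, 0.0278 by DESeq2), and by -1.27 without the libraries with high Ttr. Over all fits run this difference lay between -1.38 and -0.48.

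Col5a2, a chain of collagen V that joins fibrils of collagen I, measured 12.4, 12.9, 14.8 and 18.3 CPM with BCI-838 and 5.51, 7.70, 7.55, 6.01 and 4.45 CPM in the combined group. It measured 12.8, 19.4, 7.24, 13.7 and 8.38 CPM with the wheel, 3.22 to 7.22 CPM in WT, and 7.72, 4.92, 21.6, 6.45 and 4.66 CPM in controls. All 4 drug libraries and 4 of the 5 wheel libraries were above every library of WT and the combined group, and replicate 3 stood apart among the controls. The log2 fold change of the combined group was -1.22 against BCI-838 (SE 0.37, adjusted p = 0.191 by edgeR, 0.0426 with these libraries fitted alone) and -0.98 against the wheel (SE 0.35, adjusted p = 0.179 by edgeR). Over all fits run it lay between -1.31 and -0.63 against BCI-838 and between -1.12 and -0.68 against the wheel.

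Col1a2 measured 8.12, 17.2, 27.8 and 18.7 CPM with BCI-838 and 3.78, 5.32, 10.6, 3.64 and 6.75 CPM in the combined group, a difference of -1.58 on the log2 scale (SE 0.42, adjusted p = 0.185 by edgeR, 0.0281 by DESeq2). Col1a1 had a log2 fold change of -1.31 (SE 0.42) and Col3a1 one of -1.85 (SE 0.57). Fibrillar collagens were lower in 10 of 11 cases, with a median of -0.64. Fibroblast markers were lower in 18 of 18 cases (median -0.73) and the midbrain factors in 13 of 13 (median -2.50). With fibroblast markers as a covariate the log2 fold change of Col1a2 was -0.42 and the median over all collagens was -0.02, and with the midbrain factors they were -0.66 and -0.12. With BCI-838 and in the combined group, fibroblast markers summed to 153 to 197 and 71.9 to 146 CPM, and midbrain factors to 56.9 to 116 and 5.46 to 47.6 CPM. As neither overlapped, these fits cannot separate the lists from the treatment.

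**Figure D4:**
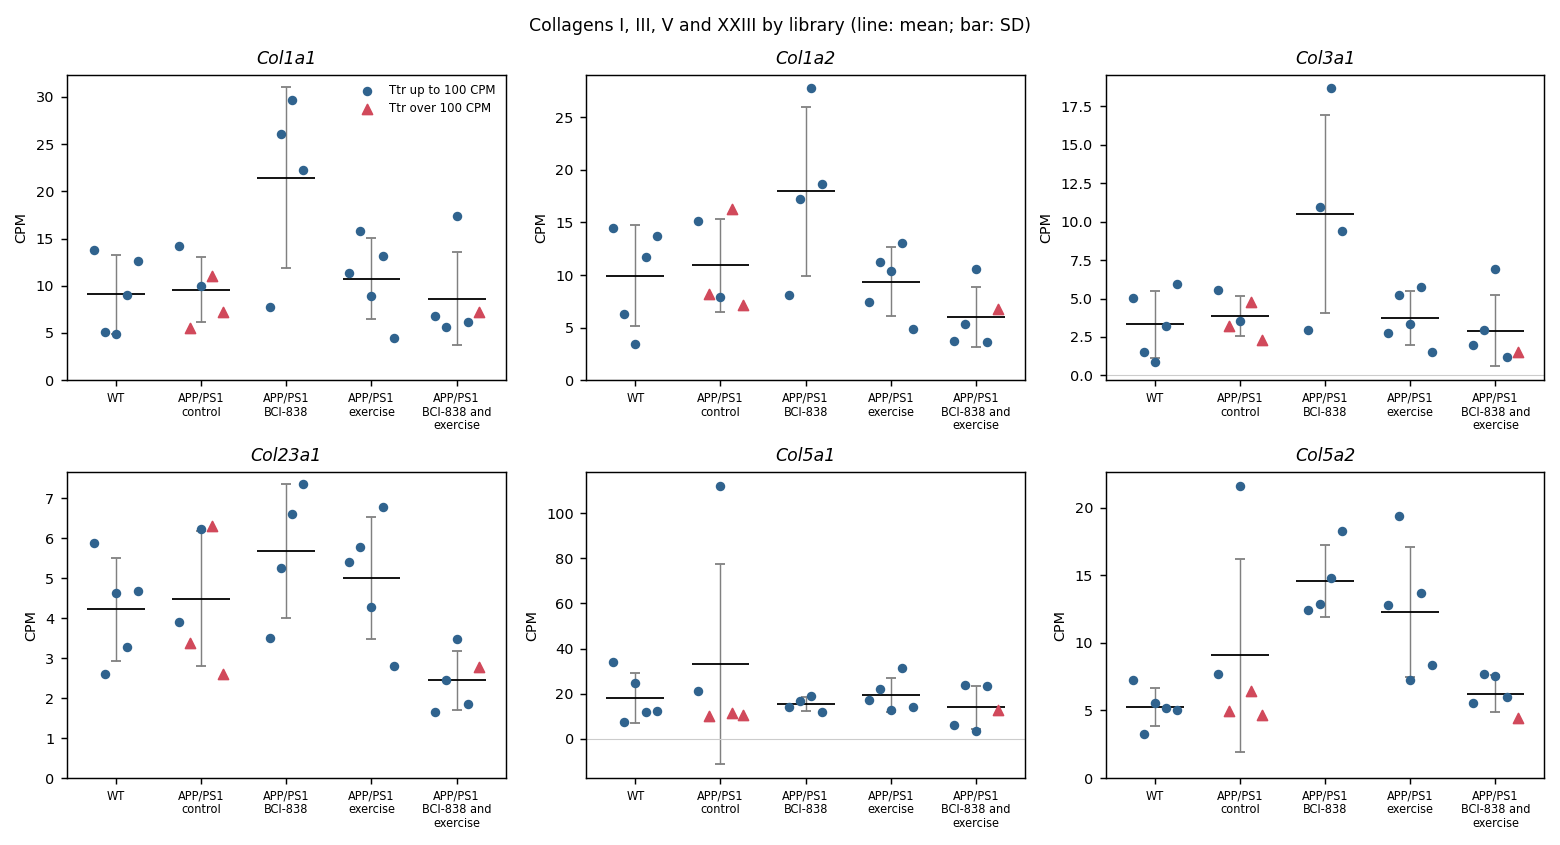
CPM of Col1a1, Col1a2, Col3a1, Col23a1, Col5a1 and Col5a2 in each library by group, with the group mean (black line) and SD (grey bar). Col23a1 and Col5a2 do not overlap between the BCI-838 and combined groups, and Col5a1 reaches 112 CPM in control replicate 3.

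Against the wheel, 18 collagen genes were higher in the combined group and 25 lower, with a median of -0.18 against -0.02 over all genes, and of 0.01 without replicate 2 of the wheel group. With the fibroblast markers as a covariate it was 0.19, with 29 genes higher and 14 lower, and with the midbrain factors it was 0.05, with 22 higher and 21 lower. None passed by edgeR, where 0% of all genes did, DESeq2 called Col23a1 and voom called 0. Their totals over all genes were 361 of 22988 and 1012 of 18286. The unadjusted p was under 0.05 for 6 collagen genes (14.0%), 1 higher and 5 lower, which is no larger a share than the 17.6% of all genes (8.73% higher and 8.83% lower). Col23a1 measured 5.41, 5.78, 4.27, 6.78 and 2.80 CPM with the wheel, and its log2 fold change was -1.04 (SE 0.29, adjusted p = 0.131 by edgeR, 0.0328 by DESeq2). Over all fits run that value lay between -1.20 and -0.60.

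For the interaction, which asks whether drug and wheel together differ from the sum of their single effects, no collagen gene passed by edgeR and 0% of all genes did. DESeq2 called Col8a2 and voom called 0, and of all genes they called 75 of 22988 and 0 of 18286. The unadjusted p was under 0.05 for 10 collagen genes (23.3%), 3 higher and 7 lower, against 9.6% of all genes, 5.37% higher and 4.23% lower. Over the 43 genes the median was -0.10, with 17 higher and 26 lower, and it was 0.11, with 25 higher and 18 lower, when the midbrain factors were a covariate. The interaction of Col8a2 was 4.11 on the log2 scale (SE 1.02, adjusted p = 0.272 by edgeR), and 0.22 without the 4 libraries with high Ttr. That of Col23a1 was -1.38 (SE 0.42) and -1.25, and that of Col5a2 was -1.66 (SE 0.50) and -0.87. Over all fits run the interaction lay between -1.53 and -0.58 for Col23a1 and between -2.27 and -0.87 for Col5a2. The plot of log2 fold changes shows all genes in all comparisons.

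**Figure D5:**
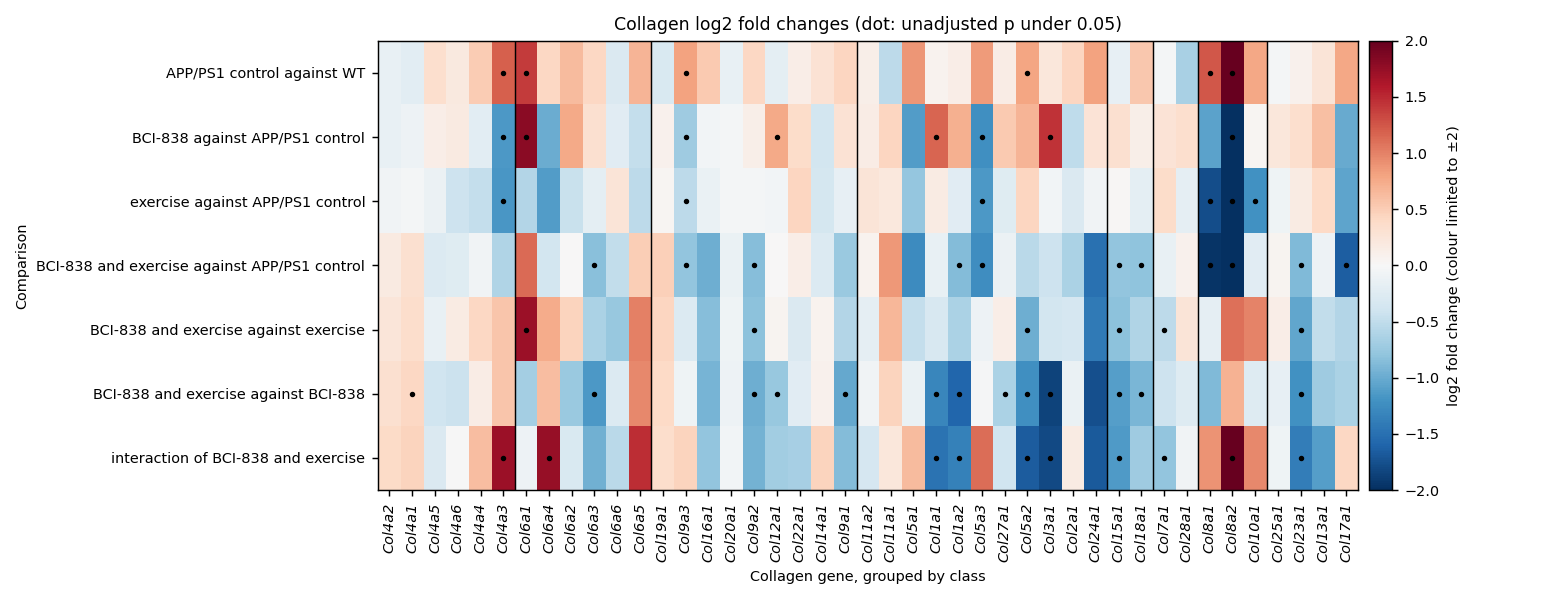
Log2 fold change of each collagen gene (columns, grouped by class) in each of the 7 comparisons (rows), with colours limited to ±2 and dots at an unadjusted p under 0.05. No adjusted p passed 0.05, and Col8a2 runs from 2.66 in controls against WT to -3.41 with the wheel against controls.

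Col25a1, the plaque-associated collagen, showed small differences. It measured 69.4 to 93.7 CPM in WT, 57.3 to 100 CPM in controls, 82.1 to 95.9 CPM with BCI-838, 53.2 to 120 CPM with the wheel and 72.2 to 93.6 CPM in the combined group. The groups overlapped throughout. The log2 fold change between controls and WT was -0.04 (SE 0.17), with an interval of 2 SE from -0.38 to 0.30, and the log2 fold changes of the treatment comparisons lay between -0.17 and 0.22. Col4a1 and Col4a2 had log2 fold changes between -0.22 and 0.41 in the 6 comparisons of groups, and those of Col11a2 lay between -0.19 and 0.26.

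Genes that build, bind or degrade collagen were described from lists of their own, and none of their members was called by edgeR in any comparison. Of 31 genes of collagen synthesis and processing, 23 were higher in controls than in WT (median 0.09) and 21 were lower in the combined group than in controls (median -0.09). Pcolce, an enhancer of procollagen cleavage, had log2 fold changes of 0.85 (SE 0.38) and -0.95 (SE 0.38) in these comparisons. Loxl3, a crosslinking oxidase, had one of 0.21 (SE 0.12) in the former, and Crtap, a subunit of the prolyl hydroxylation complex, had one of -0.33 (SE 0.13) in the latter. Of 10 tested collagen receptors, 6 were lower in the combined group than in controls (median -0.06), with Mrc2, an uptake receptor of collagen, at -0.53 (SE 0.21) and Gpr56, a receptor of collagen III, at -0.39 (SE 0.16). Of 12 tested genes of collagen breakdown and its inhibitors 7 were lower (median -0.15), with the gelatinase Mmp2 at -0.50 (SE 0.15) and the protease Fap at -1.42 (SE 0.55).

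Basement membrane partners, the laminins, nidogens and related genes, were lower in 12 of 17 cases in the combined group against BCI-838 (median -0.23). Nid1, which links laminin to collagen IV, had a log2 fold change of -0.63 (SE 0.19) there and the laminin chain Lama1 one of -1.01 (SE 0.31), while Col4a1 had one of 0.41 (SE 0.20). Small leucine-rich proteoglycans, which bind and space collagen fibrils, had the widest differences of these lists. In controls against WT 9 of 9 tested members were higher (median 0.45), with Prelp at 0.56 (SE 0.18) and Lum at 0.68 (SE 0.37), and in the combined group against controls 8 of 9 were lower (median -1.28), with Omd at -2.80 (SE 0.62) and Ogn at -1.76 (SE 0.44).

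The 20 libraries without high Ttr were used to relate each collagen to marker lists of other cell types, on the log2 scale with group means subtracted, which gave 516 relations. These were computed after the values had been seen, and those named are among the strongest. Their permutation p values have the limits given for the chain pairs. Col1a2 and Col3a1 followed the fibroblast markers, with r = 0.85 and rho = 0.82 for Col1a2 (adjusted permutation p = 0.00129 and 0.00229) and r = 0.84 and rho = 0.84 for Col3a1 (adjusted permutation p = 0.00129 and 0.00206). Without the 2 farthest libraries r was 0.79 and 0.81.

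Col8a1 followed the choroid plexus markers also among these 20 libraries (r = 0.85, rho = 0.88, adjusted permutation p = 0.00129 and 0.00206, r = 0.86 without the 2 farthest). It followed the midbrain factors as closely (r = 0.85, rho = 0.86, adjusted permutation p = 0.00129 and 0.00206, r = 0.83 without the 2 farthest). Col19a1 followed the CA field markers, with r = 0.85 and rho = 0.74 (adjusted permutation p = 0.00206 and 0.00727, r = 0.78 without the 2 farthest), and its highest value, 73.7 CPM, was in WT replicate 3. Col20a1, a fibril-associated collagen, ran with the granule neuron markers (r = 0.72, rho = 0.79, adjusted permutation p = 0.0076 and 0.00221, r = 0.68 without the 2 farthest) and against the interneuron markers (r = -0.78, rho = -0.75, adjusted permutation p = 0.00401 and 0.00625, r = -0.90 without the 2 farthest). The lists share libraries and vary with each other, so these relations do not place a collagen in one cell type.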

How the data were processed

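RNA of the dentate gyrus was sequenced from 24 libraries in 5 groups, assigned from the sample labels. The authors deposited a table of whole read counts per gene for 26667 genes. STAR, HTSeq, DESeq and the mm10 build are named in the submitters' processing notes, without versions. A normalised table of the authors was not used here.

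Counts were fitted with edgeR 4.0.16 (R 4.3.3): genes passing filterByExpr (minimum count 10, minimum total 15; 18286 genes), TMM factors, robust quasi-likelihood, 1 mean per group over all 24 libraries, and Benjamini-Hochberg adjustment over all tested genes. Each SE was obtained from the fold change and its F value (|log2 fold change| / √F). Totals ran from 48656360 to 64632882 counts per library. Levels per kb used merged exons of GENCODE M21. Correlations used log2 CPM with a prior count of 2 and 100000 permutations over all libraries without regard to group, two-sided. The values permuted had group means subtracted, which leaves fewer free values than libraries, so these p values are somewhat too small. The fit was tested on simulated data. Alternatives were DESeq2 1.42.0, limma 3.58.1 voom with quality weights, other scaling and filters, a replicate block, libraries left out, and marker lists as covariates.

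Genes named with values were those called in any comparison, the 3 with the smallest p in each comparison, the 6 highest and 3 lowest in WT per length, a set of collagens written down with the rule, and the partners of the 10 pairs. For other lists they were the 2 members with the smallest p in a comparison described. Other genes named, among them Col5a3, Col6a3 and Col20a1, were chosen after their values were seen. The members and lists were chosen with earlier results of these data known.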

Additional observations from a re-analysis of the deposited data

Results flagged for a closer look

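The named collagens were checked group by group for a library far from the others of its group (Dixon's criterion), and 8 of 100 gene-group sets held one. Chance gives about 1 in 20 for independent, normally distributed values. CPM values need not be normal and these genes vary together, so the count cannot be read against that rate. Col6a1 was 40.0 CPM in replicate 2 of the wheel group, with the nearest library at 11.3 CPM. Col8a2 was 4.48 CPM in replicate 5 of the combined group, with the nearest at 0.588 CPM, and Col6a5 was 1.89 CPM in the same library, with the nearest at 0.444 CPM. This library has 297 CPM of Ttr. Col8a2 was lowest in replicate 1 of the BCI-838 group, at 0.706 CPM, with the nearest at 0.808 CPM (40 against 48 counts). Col1a1 was 17.4 CPM in replicate 3 of the combined group, with the nearest at 7.21 CPM. Col5a2 was 21.6 CPM in replicate 3 of the controls, with the nearest at 7.72 CPM. Col4a2 was lowest in replicate 2 of the controls, at 56.8 CPM, with the nearest at 78.8 CPM. Col8a1 was 5.64 CPM in WT replicate 1, with the nearest at 1.99 CPM.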

How the results depend on the processing

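By edgeR no collagen gene was called in any of the 7 comparisons, and this held under other scaling, other filters, the covariates and without the 4 libraries with high Ttr. DESeq2 called 1 collagen gene with BCI-838 against controls, 1 with the wheel against controls, 1 in the combined group against the wheel, 3 against BCI-838 and 1 in the interaction. Its totals over all genes were 169, 60, 361, 256 and 75 of 22988, in the same order. Voom called 4 with BCI-838 against controls and 6 in the combined group against BCI-838, where edgeR on the compared libraries alone called 1. Over all genes voom called 483 and 936 of 18286 there, and that edgeR fit called 111 of 17431. Leaving out each library in turn gave 0 to 1 with the wheel against controls and 0 elsewhere. The cause of these differences was not tested. With the fibroblast covariate the collagen medians were 0.11 for the combined group against controls, 0.19 against the wheel and -0.015 against BCI-838. Against controls and against BCI-838 the marker sums did not overlap, so these fits cannot separate the markers from the treatment. The interaction median, -0.10 in the reported fit, was -0.41 by voom, -0.48 without the 4 libraries, -0.42 with the choroid plexus covariate, -0.0035 with the fibroblast covariate and 0.11 with the dorsal midbrain covariate. The midbrain covariate also turned the median to -0.02 for BCI-838 against controls and to 0.05 for the combined group against the wheel, and the choroid plexus covariate turned it to 0.02 for the wheel against controls. Without the 4 libraries with high Ttr r was 0.15 for Col4a3 with Col4a4 and 0.52 for Col9a2 with Col9a3, against 0.44 and 0.23 with all 24. Col8a2 was followed in controls against WT, in each treatment group against controls and in the interaction. It kept its direction there under every alternative run, but not its size. The log2 value fell to 0.15 in controls against WT and to 0.22 in the interaction.

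With the replicate block 0 collagen genes were called in each comparison, and the medians were 0.27, 0.17, -0.10, -0.25, -0.16, -0.41 and -0.28, in the order controls against WT, BCI-838, wheel and combined group against controls, combined group against wheel and against BCI-838, and interaction. Of 46 same-numbered pairs of libraries 10 had a correlation of deviations above 0.1 (range -0.382 to 0.395). Pairs with different numbers were not computed for reference, so these values cannot decide whether same-numbered libraries are related. Col10a1, Col17a1 and Col6a5, with sums of 202 to 567 counts over 24 libraries, are limited by depth.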
